A study of Homo sapiens with 15 samples.

Results

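The genes of the PI3-kinase subunits were followed in HCT116 cells, a human colorectal cancer line, after treatment with thymoquinone (TQ), 5-fluorouracil (5-FU), both drugs together (Combi) or SARB, a hybrid molecule made from TQ and 5-FU. The members were all rows of the count table whose symbol begins with PIK3C or PIK3R, which gave 9 rows of 770 genes. Of these, 8 belong to the 730 endogenous genes that were tested, namely PIK3CA, PIK3CB, PIK3CD, PIK3CG, PIK3R1, PIK3R2, PIK3R3 and PIK3R5. The ninth row, PIK3R4, lies in the panel's class of 40 housekeeping genes, so it took part in the scaling and is described apart from the others. Control cells were left untreated, and the treated cells received 40 µM TQ, 15 µM 5-FU, Combi as 35 µM TQ with 35 µM 5-FU, or 35 µM SARB, each for 24 h and with 3 samples per group. All groups shared the cell line and the growth medium, and Combi held more 5-FU and less TQ than the single treatments. The labels do not state whether the 3 samples of a group came from separate cultures, so the p-values measure the spread between these samples, which may be technical.

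PI3-kinases of class I add a phosphate to a lipid of the inner plasma membrane, and the product recruits AKT and its activator to the membrane, where signals for growth, survival and glucose use start. Each enzyme pairs a catalytic subunit with a regulatory subunit. PIK3CA, PIK3CB and PIK3CD encode the catalytic subunits p110α, p110β and p110δ. These pair with the regulatory subunits p85α, p85β and p55γ from PIK3R1, PIK3R2 and PIK3R3, which bind activated receptor tyrosine kinases. PIK3CG encodes p110γ, which pairs with p101 from PIK3R5 and responds to G protein coupled receptors, mainly in blood cells. PIK3R4 encodes VPS15, the partner of the class III kinase in autophagy and endosome traffic. PIK3CA is among the genes most often mutated in colorectal cancer, and HCT116 is known for an activating mutation in it. The assay counts transcripts and does not separate alleles, phosphorylation or protein.

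The NanoString assay hybridizes a barcoded pair of probes to each transcript and counts single barcodes, with no amplification step. Raw counts were divided by 1 factor per sample, taken from the geometric mean over the 40 housekeeping genes, and the quotients are called scaled counts. A member was taken as above background where its raw count passed the mean plus 2 SD of the 8 negative probes of that sample, a limit between 6.23 and 26.4 raw counts. A gene was called where the quasi-likelihood test of edgeR gave a p of 0.05 or less after Benjamini-Hochberg adjustment over the 730 genes and the groups differed by 1.5-fold or more, which is 0.58 on the log2 scale. Probes differ in efficiency, so the levels of different genes are not set against each other.

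Endogenous counts summed to between 135017 and 607782 per sample, and 447 to 599 of the 730 endogenous genes were above background. Of 10 markers of colon epithelium, 6 are on the panel, and CDH1, the epithelial cadherin, was above background in 15 of 15 samples. The scanner-file names in the labels place the samples on 3 cartridges: the first held control replicate 1 with every TQ, 5-FU and SARB sample, the second control replicates 2 and 3 with Combi replicate 1, and the third the other Combi samples. Cartridge was therefore also fitted as a block. In that fit the contrast of TQ, 5-FU or SARB with control rests on control replicate 1, and that of Combi with control on Combi replicate 1, so a call may be lost for lack of samples. The housekeeping scaling puts the median gene of the panel lower than in control, with a median log2 fold change over 730 genes of -0.47 in TQ, -0.41 in SARB, -0.27 in 5-FU and -0.10 in Combi. TMM normalization, which centers the bulk of the genes, placed these medians between -0.07 and -0.02, and member values under TMM are given where a call or direction changes.

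The change found in the most treatments was in PIK3R2, the p85β gene, which was called higher in 5-FU, Combi and SARB but not in TQ. PIK3R5, the p101 gene, was called lower in TQ and in SARB, and every treated sample of all 4 treatments lay below every control sample. PIK3CA and PIK3CB lay lower in TQ and 5-FU than in control at less than 1.5-fold, and no catalytic subunit that was above background in both groups was called against control. PIK3R1, the p85α gene, lay on the higher side in TQ, 5-FU and SARB without reaching the call, and it was called higher in SARB than in Combi. PIK3R3 was not called in any comparison.

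In TQ against control 1 of 8 members was called, PIK3R5 on the lower side, where 25.1% of the 730 genes were called and 21.6% were lower. In 5-FU 1 of 8 was called, PIK3R2 on the higher side, where 20.3% of all genes were called and 10.1% were higher. In Combi 2 of 8 were called, PIK3R2 higher and PIK3CG lower, where 20.1% of all genes were called, 13.6% higher and 6.58% lower. In SARB 2 of 8 were called, PIK3R2 higher and PIK3R5 lower, where 28.6% of all genes were called, 8.63% higher and 20% lower. In SARB against Combi 2 of 8 were called, PIK3CG and PIK3R1, both higher in SARB, where 12.2% of all genes were called and 0.959% were higher. PIK3CG was at background in all Combi samples and entered this count through SARB alone, so PIK3R1 was the 1 call there between measured levels. The 4 treatments share the control samples. None of the 4 counts against control, at 1 or 2 of 8, stands far from the share among all genes. An F test over all 5 groups found 6 of 8 members to differ somewhere, all but PIK3CD (adjusted p = 0.0661) and PIK3R3 (adjusted p = 0.656), while 54.8% of all genes passed that test. With cartridge as a block 2 members and 35.1% of all genes passed it.

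Both the scaling and the cartridge moved these calls. Under TMM normalization 1 of 8 members was called in TQ (PIK3R1) beside 16.8% of all genes, 2 in 5-FU (PIK3R1 and PIK3R2) beside 19.9%, and 3 in Combi (PIK3CD and PIK3R2 higher, PIK3CG lower) beside 22.1%. Under the same setting 2 were called in SARB (PIK3R1 and PIK3R2) beside 25.8% and 2 in SARB against Combi beside 12.7%. With cartridge as a block PIK3R2 in Combi was the only call of edgeR in these 5 comparisons, where 13.2% of all genes were called. The other 4 comparisons then had 0 calls among the members, and 5.34% of all genes were called in TQ, 14.5% in SARB, 13.4% in 5-FU and 0.137% in SARB against Combi. At an unadjusted p under 0.05 the block left 1 member in TQ and 0 in the other 3.

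**Figure D1:**
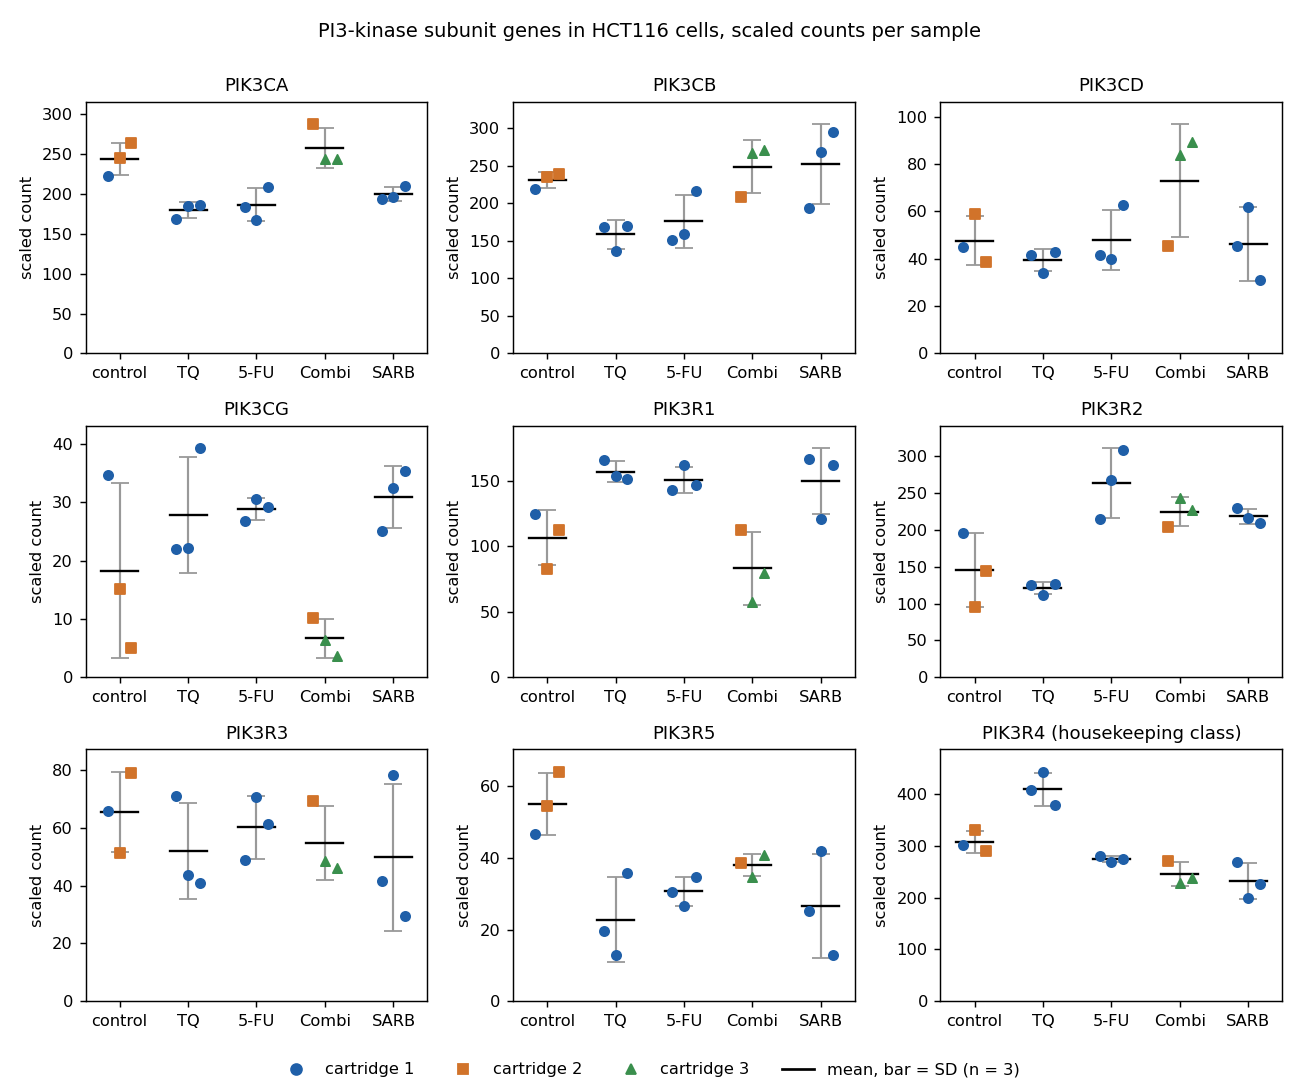
Scaled counts of the 9 PI3-kinase subunit genes by group, with the y axis from 0 in every panel, 1 point per sample colored by cartridge, a line at the mean and a bar of 1 SD (n = 3). PIK3R2 was high in 5-FU, Combi and SARB, PIK3R5 was highest in the 3 control samples, and PIK3CG and PIK3R1 lay higher in every sample of cartridge 1 (circles) than in any sample of the other cartridges.

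The median log2 fold change against control over the members with a fold change was -0.35 in TQ, 0.02 in SARB, -0.06 in 5-FU and 0.08 in Combi. It was -0.11 in SARB against Combi, where the median over all genes was -0.32. The members' medians for SARB against Combi, here and further below, count PIK3CG, although no fold change of it is given there. After TMM normalization the members' median was 0.12 in TQ, 0.36 in SARB, 0.13 in 5-FU, 0.17 in Combi and 0.13 in SARB against Combi. In TQ, 5-FU and SARB against Combi the sign of the members' median thus turned with the scaling.

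**Figure D2:**
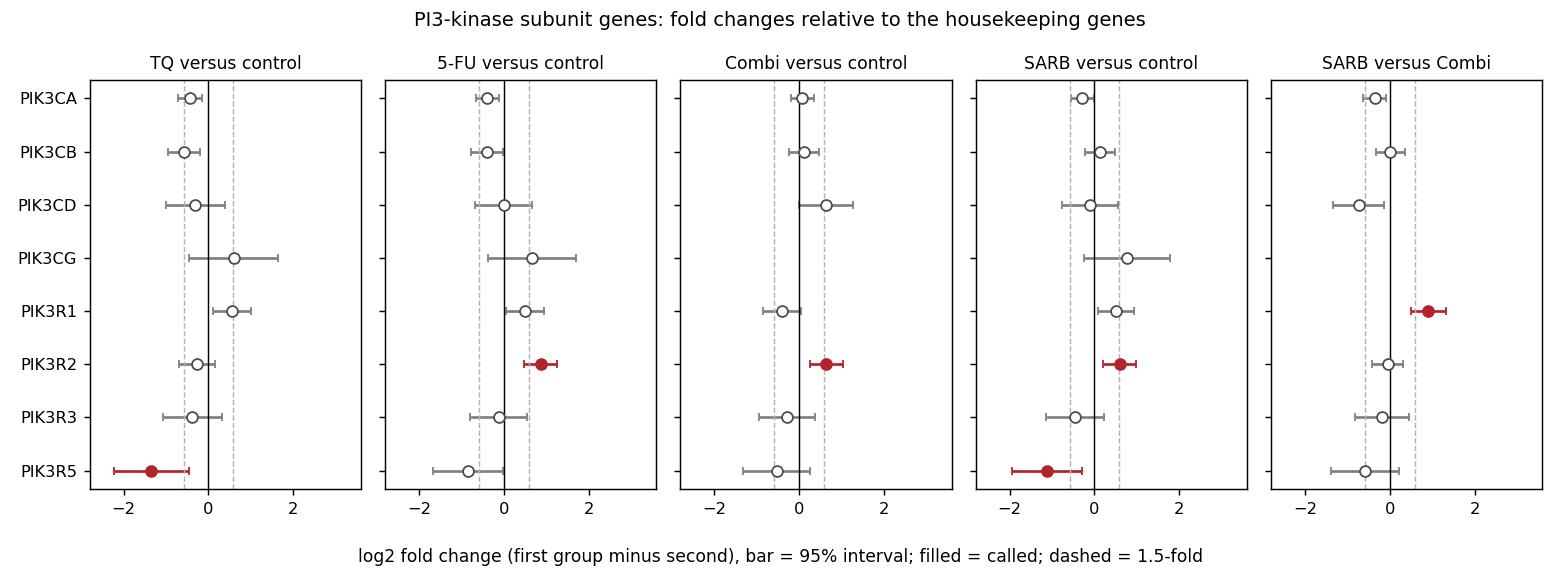
Log2 fold change of each member in the 5 comparisons (x axis, first group minus second) with its 95% interval, after housekeeping scaling. Filled points were called, open points were not, the dashed lines mark 1.5-fold, and PIK3CG is left out in both comparisons with Combi, in which 0 of 3 samples were above background. PIK3R2 stands to the right in 5-FU, Combi and SARB, and PIK3R5 to the left in TQ and SARB.

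The sequences around the starts of the 3 regulatory genes with a call, PIK3R2, PIK3R5 and PIK3R1, are shown so that their composition can be compared. They come from RefSeq (GRCh38.p14), run from 250 bases before to 50 bases after the outermost start of the gene, and are written 5′ to 3′ on the gene's strand. Capitals mark GGGCGG on either strand, the GC box that factors of the SP family bind. PIK3R2 lies at chr19:18153163-18170532 on the plus strand and its window is chr19:18152913-18153212. PIK3R5 lies at chr17:8878916-8965707 on the minus strand and its window is chr17:8965658-8965957. PIK3R1 lies at chr5:68215756-68301821 on the plus strand and its window is chr5:68215506-68215805, the first of 4 annotated starts.
PIK3R2: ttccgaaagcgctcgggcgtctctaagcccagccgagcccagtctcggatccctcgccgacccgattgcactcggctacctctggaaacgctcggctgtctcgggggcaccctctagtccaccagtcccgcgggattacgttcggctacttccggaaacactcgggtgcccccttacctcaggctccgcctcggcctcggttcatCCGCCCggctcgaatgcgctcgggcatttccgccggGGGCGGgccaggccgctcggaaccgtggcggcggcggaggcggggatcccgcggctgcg
PIK3R5: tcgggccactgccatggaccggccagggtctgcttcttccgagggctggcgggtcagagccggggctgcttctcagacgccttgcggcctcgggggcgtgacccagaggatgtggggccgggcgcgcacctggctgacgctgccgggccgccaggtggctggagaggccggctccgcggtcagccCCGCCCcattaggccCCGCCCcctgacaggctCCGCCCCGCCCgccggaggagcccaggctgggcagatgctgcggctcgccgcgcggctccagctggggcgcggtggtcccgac
PIK3R1: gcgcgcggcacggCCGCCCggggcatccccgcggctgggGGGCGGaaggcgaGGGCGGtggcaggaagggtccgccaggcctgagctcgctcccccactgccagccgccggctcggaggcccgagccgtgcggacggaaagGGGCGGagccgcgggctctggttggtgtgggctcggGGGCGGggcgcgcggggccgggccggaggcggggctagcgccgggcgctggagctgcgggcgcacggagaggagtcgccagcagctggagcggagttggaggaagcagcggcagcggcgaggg

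GGGCGG occurred 2 times in the PIK3R2 window, 4 times in that of PIK3R5 (with overlapping matches) and 5 times in that of PIK3R1, and 45% of 35116 promoter windows of this length hold it at least once. All 9 members matched a window by symbol, and 6 of the 9 first-listed windows held GGGCGG. Those of PIK3CG, PIK3R3 and PIK3R4 did not. CCAAT, read on both strands, was in those of PIK3CA and PIK3CB, against 34.6% of all windows, and TATAAA was in none of the 9, against 11.5%. The share of G and C was 70% in PIK3R2, 76.7% in PIK3R5, 80% in PIK3R1 and 74% in PIK3CB, and it was 41.7% in PIK3CG, where the median over all windows was 58.7%. These matches describe letters in a window. Which start HCT116 cells use, and which transcripts of PIK3R1 the probe captures, is not given in the sources used here.

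PIK3R2 (NM_005027.2) encodes p85β, a regulatory subunit that holds the catalytic subunit inactive until it binds phosphorylated receptors or adaptors. Its scaled counts were 195, 95.2 and 145 in control (145 ± 50.1, SD, n = 3), and 125, 112 and 126 in TQ (121 ± 7.71). They were 215, 267 and 309 in 5-FU (264 ± 46.9), 204, 243 and 227 in Combi (225 ± 19.3), and 229, 216 and 209.6 in SARB (218 ± 10.1). All 9 samples treated with 5-FU, Combi or SARB lay above the highest control sample, as did 16.3% of all genes in 5-FU, 19.3% in Combi and 13.2% in SARB, whereas TQ fell within the control range. The log2 fold change against control was 0.87 in 5-FU (SE 0.19, adjusted p = 0.00135), 0.65 in Combi (SE 0.19, adjusted p = 0.0117) and 0.60 in SARB (SE 0.19, adjusted p = 0.0171), and it was -0.27 in TQ (adjusted p = 0.295). The control samples spread more widely than those of any treated group, and control replicate 1, on cartridge 1, was the highest of them.

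The call of PIK3R2 in 5-FU held without each sample in turn, with log2 fold changes from 0.63 to 1.14. In Combi it was lost without control replicate 2 (0.41, adjusted p = 0.104) or Combi replicate 2 (0.58, adjusted p = 0.0519), and in SARB without control replicate 2 (0.36, adjusted p = 0.13) or SARB replicate 1 (0.56, adjusted p = 0.0488, under 1.5-fold). With cartridge as a block the value was 0.43 in 5-FU (adjusted p = 0.269) and 0.16 in SARB (adjusted p = 0.712), neither of them called, while it was 0.78 in Combi and called (adjusted p = 0.0288). Within cartridge 1, the 3 samples of 5-FU and the 3 of SARB lay above control replicate 1, and the 3 TQ samples lay below it with a log2 difference of -0.69. Under TMM normalization PIK3R2 remained called higher in 5-FU (1.04), Combi (0.73) and SARB (0.94), and in TQ the value turned to 0.19 (adjusted p = 0.528). Scaling by the 20 most abundant housekeeping genes ended the SARB call of PIK3R2 (0.54, adjusted p = 0.0273, under 1.5-fold).

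TQ, 5-FU and SARB ran together on the first cartridge, so their 3 comparisons with each other were added after the data were seen, although the doses differ. PIK3R2 was higher in 5-FU at 15 µM than in TQ at 40 µM by 1.13 on the log2 scale (SE 0.19, adjusted p = 1.19e-04) and higher in SARB at 35 µM than in TQ by 0.86 (SE 0.19, adjusted p = 0.00171). In both comparisons the groups did not overlap, which was also found on the higher side in 31.5% and 23.4% of all genes. The call held under TMM, in DESeq2 and without each sample in turn. It also stood with cartridge as a block, but all samples compared were on 1 cartridge, so the block could not test these contrasts. In 5-FU against TQ PIK3R2 was the 1 member called, where 17.5% of all genes were called, 14.4% higher. In SARB against TQ PIK3CB was called as well, so 2 of 8 members were, where 19.5% of all genes were called, 13.8% higher. In SARB against 5-FU edgeR called 0 of 8 members, with 1 at an unadjusted p under 0.05 (PIK3CB), and DESeq2 and limma called 0 as well. The share of all genes called there was 1.23%. The log2 difference of PIK3R2 there was -0.27, with a 95% interval from -0.64 to 0.10.

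The genes nearest to a member in pattern were ranked by the root mean square distance of the centered log2 group means, over the 5 groups and the genes above background in every sample. Nearest to PIK3R2 among 404 genes were SHC1, an adaptor of receptor tyrosine kinases (distance 0.0768), POLD4, a small subunit of DNA polymerase delta (0.0947), and ITGA6, an integrin subunit (0.0981), where the median gene lay at 0.49.

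PIK3R5 (NM_001142633.1) encodes p101, the adaptor that brings p110γ to the βγ subunits of G proteins. Its scaled counts were 46.7, 54.4 and 63.9 in control (55.0 ± 8.60) and 19.6, 12.9 and 35.8 in TQ (22.8 ± 11.8). They were 30.5, 26.6 and 34.7 in 5-FU (30.6 ± 4.07), 38.6, 34.8 and 40.7 in Combi (38.0 ± 3.02), and 25.1, 41.8 and 12.8 in SARB (26.6 ± 14.6). The 12 treated samples lay below the lowest control sample, in a treated range from 12.8 to 41.8. The log2 fold change was -1.34 in TQ (SE 0.42, adjusted p = 0.0199) and -1.12 in SARB (SE 0.40, adjusted p = 0.0305), both called. It was -0.84 in 5-FU (adjusted p = 0.121) and -0.53 in Combi (adjusted p = 0.355), neither of them called.

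PIK3R5 was measured from few barcodes, with raw counts from 8 to 68, although it was above background in 15 of 15 samples. Its call in TQ was lost without control replicate 3 (-1.22, adjusted p = 0.0745) or TQ replicate 2 (-0.95, adjusted p = 0.146). Its call in SARB was lost without control replicate 2 (-1.13, adjusted p = 0.0701), control replicate 3 (-1.001, adjusted p = 0.106), SARB replicate 1 (-1.11, adjusted p = 0.0794) or SARB replicate 3 (-0.74, adjusted p = 0.142). TMM normalization gave -0.90 in TQ (adjusted p = 0.0656) and -0.82 in SARB (adjusted p = 0.0542), and the cartridge block gave -1.11 and -0.89 (adjusted p = 0.306 and 0.342), so the direction held and the call did not. Groups without overlap below control were found in 39.5% of all genes in TQ, 28.9% in SARB, 27.8% in 5-FU and 16.7% in Combi. PIK3R5 was the only member that lay in this set in all 4 treatments. These share the same control samples, and the share of all genes that did so in all 4 was not counted. Nearest to it in pattern were CACNA2D2, a calcium channel subunit (distance 0.10), HDAC4, a histone deacetylase (0.102), and TIAM1, an activator of RAC1 (0.125), where the median gene lay at 0.465.

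The gene of p85α, the regulatory subunit known from most tissues, which also stabilizes the catalytic subunits, is PIK3R1. The panel lists it under NM_181504.2, and whether this probe reads the transcript of p85α or others of PIK3R1 is not given here. Its scaled counts were 125, 83.1 and 113 in control (107 ± 21.3), 166, 154 and 152 in TQ (157 ± 8.03) and 143, 162 and 147 in 5-FU (151 ± 10.2). They were 112, 57.4 and 79.7 in Combi (83.2 ± 27.7) and 167, 121 and 162 in SARB (150.0 ± 24.9). All TQ and 5-FU samples lay above the control samples, which 6.16% of all genes did in TQ and 16.3% in 5-FU. SARB replicate 2 lay within the control range, and Combi overlapped with control. The log2 fold change against control was 0.56 in TQ (adjusted p = 0.0479, under 1.5-fold), 0.50 in 5-FU (adjusted p = 0.0833), 0.51 in SARB (adjusted p = 0.055) and -0.40 in Combi (adjusted p = 0.201). Under TMM normalization it was called higher in TQ (1.02), 5-FU (0.70) and SARB (0.88).

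SARB and Combi shared the dose of 35 µM, and PIK3R1 was called higher in SARB by 0.90 on the log2 scale (SE 0.20, adjusted p = 0.00315). The groups did not overlap, as on the higher side in 4.93% of all genes, and no cartridge held both. All 10 samples of cartridge 1 had between 121 and 167 scaled counts of PIK3R1 and the 5 samples of cartridges 2 and 3 between 57.4 and 113, and with cartridge as a block the difference between SARB and Combi was 0.08 (adjusted p = 0.997). Only 1.1% of the 730 genes lay higher in every sample of cartridge 1 than in any other sample, and PIK3R1 and PIK3CG were among them. Against control replicate 1, the 1 control sample of that cartridge, PIK3R1 lay higher in 3 of 3 TQ samples, 3 of 3 5-FU samples and 2 of 3 SARB samples, with log2 differences of the means of 0.34, 0.27 and 0.25. Without control replicate 1, PIK3R1 was called in TQ (0.68, adjusted p = 0.032) and in SARB (0.64, adjusted p = 0.0364), without SARB replicate 2 it was called in SARB (0.63, adjusted p = 0.0219), and without Combi replicate 1 it was called lower in Combi (-0.64, adjusted p = 0.0196).

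PIK3R3 (NM_003629.3) encodes p55γ, a shorter regulatory subunit. Its scaled counts were 65.7, 51.4 and 79.0 in control (65.4 ± 13.8), 71.0, 43.8 and 40.9 in TQ (51.9 ± 16.6) and 48.8, 70.5 and 61.2 in 5-FU (60.2 ± 10.9). They were 69.3, 48.5 and 46.1 in Combi (54.6 ± 12.8) and 41.5, 78.2 and 29.5 in SARB (49.7 ± 25.4). The groups overlapped throughout. The log2 fold changes against control were between -0.46 in SARB and -0.12 in 5-FU, and the 95% interval in SARB ran from -1.13 to 0.22, which holds more than a 2-fold decrease. Without SARB replicate 2 PIK3R3 was called lower in SARB (-0.91, adjusted p = 0.0193).

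Among the catalytic subunits, PIK3CA (NM_006218.2, p110α) had scaled counts of 223, 245 and 264 in control (244 ± 20.4), 169, 186 and 186 in TQ (180.1 ± 9.71) and 184, 168 and 208 in 5-FU (187 ± 20.5). Its counts were 287, 243 and 244 in Combi (258 ± 25.1) and 194, 197 and 209.6 in SARB (200.1 ± 8.41). All samples of TQ, 5-FU and SARB lay below the control samples, as in 39.5%, 27.8% and 28.9% of all genes, and Combi overlapped with control. The log2 fold change was -0.43 in TQ (SE 0.14, adjusted p = 0.0203), -0.39 in 5-FU (SE 0.13, adjusted p = 0.035), -0.28 in SARB (adjusted p = 0.0905) and 0.08 in Combi (adjusted p = 0.731). The lower 95% limits of these log2 fold changes were -0.71 in TQ and -0.66 in 5-FU.

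The difference in PIK3CA depended on the scaling. Under TMM normalization it turned to 0.04 in TQ (adjusted p = 0.851) and 0.08 in SARB (adjusted p = 0.715). PIK3CA was also lower in each of the 10 samples of cartridge 1 (168 to 223) than in each of the 5 others (243 to 287), as were 6.16% of all genes. Control replicate 1, the lowest control sample of PIK3CA, lay above all 9 treated samples of its cartridge, with log2 differences of the means of -0.31 in TQ, -0.26 in 5-FU and -0.16 in SARB. In SARB against Combi the log2 difference of PIK3CA was -0.36 (adjusted p = 0.0495, under 1.5-fold).

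PIK3CB (NM_006219.1, p110β) had 219.6, 236 and 239 scaled counts in control (231 ± 10.3), 169, 136 and 171 in TQ (159 ± 19.3) and 151, 159.7 and 217 in 5-FU (176 ± 35.6). It had 209, 267 and 271 in Combi (249 ± 34.8) and 194, 268 and 296 in SARB (253 ± 52.8). The TQ and 5-FU samples lay below the control samples, as in 39.5% and 27.8% of all genes, and Combi and SARB overlapped with control. The log2 fold change was -0.57 in TQ (SE 0.18, adjusted p = 0.0218), just short of 1.5-fold, -0.40 in 5-FU (adjusted p = 0.101), 0.11 in Combi and 0.13 in SARB. Scaling by the 20 most abundant housekeeping genes gave -0.64 in TQ, which was called (adjusted p = 0.00941).

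PIK3CB thus separated SARB from TQ on the same cartridge. The 3 SARB samples at 35 µM lay above the 3 TQ samples at 40 µM, with a log2 difference of 0.70 (SE 0.18, adjusted p = 0.00491). With cartridge as a block the difference was 0.71, which is no check, because the block cannot alter a contrast within 1 cartridge. The call was lost without TQ replicate 2 (0.58, adjusted p = 0.052), without SARB replicate 3 (0.56, adjusted p = 0.0306, under 1.5-fold) and in DESeq2 (0.58, adjusted p = 0.0399, under 1.5-fold). Against 5-FU at 15 µM the log2 difference of SARB was 0.53 (adjusted p = 0.156), with overlapping samples.

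PIK3CD (NM_005026.3, p110δ), known mainly from lymphocytes, was above background in 14 of 15 samples. It had 45.0, 59.0 and 38.7 scaled counts in control (47.5 ± 10.4), 41.6, 33.9 and 42.6 in TQ (39.4 ± 4.77) and 41.5, 39.9 and 62.5 in 5-FU (48.0 ± 12.6). It had 45.4, 83.8 and 89.2 in Combi (72.8 ± 23.9) and 45.3, 62.0 and 31.0 in SARB (46.1 ± 15.5). The highest values were those of Combi replicates 2 and 3, the samples of cartridge 3, while Combi replicate 1 on cartridge 2 lay within the control range. The log2 fold change was 0.63 in Combi (SE 0.30, adjusted p = 0.136) and between -0.31 and 0.00 in the other treatments. Without Combi replicate 1 it was 0.86 and called (adjusted p = 0.028), under TMM it was 0.74 and called (adjusted p = 0.0452), and with cartridge as a block it was -0.11 (adjusted p = 0.983). In SARB against Combi the difference of PIK3CD was -0.73 (adjusted p = 0.0796), and it was called lower without Combi replicate 1 (-0.96), without SARB replicate 2 (-0.99) or after scaling by the 20 most abundant housekeeping genes (-0.83, adjusted p = 0.041).

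PIK3CG (NM_002649.2, p110γ), the catalytic partner of p101, was above background in 9 of 15 samples. It had 34.6, 15.1 and 5.04 scaled counts in control, of which the first alone was above background, 22.03, 22.2 and 39.2 in TQ and 26.9, 30.6 and 29.2 in 5-FU. It had 10.2, 6.32 and 3.59 in Combi, all at background, and 25.1, 32.4 and 35.4 in SARB. Above background were 9 of 10 samples on cartridge 1 and 0 of 5 on the others, and the scaled counts of cartridge 1 (22.03 to 39.2) did not overlap with those of the others (3.59 to 15.1). In Combi against control edgeR called it lower (adjusted p = 0.0431), but no fold change is given because 1 of 3 control samples and 0 of 3 Combi samples were above background. Without control replicate 1 edgeR called PIK3CG higher in TQ, 5-FU and SARB, but the controls left were then both at background, and with cartridge as a block it was called in none of the 3. In SARB against Combi edgeR called it higher (adjusted p = 0.00323), but it entered through the SARB samples alone, 0 of 3 Combi samples were above background, and no fold change is given. It was not called there with cartridge as a block (adjusted p = 0.997) or with counts under 20 set to 20 (adjusted p = 0.0746). The genes nearest to PIK3CG in pattern lay farther off than those of PIK3R2 and PIK3R5, at 0.449 for PIK3R1, 0.472 for STAG2, a cohesin subunit, and 0.518 for XRCC4, a DNA repair factor, where the median gene lay at 0.927.

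The genes of p110δ, p110γ and p101 are best known from blood cells, so leukocyte markers were read beside them. Of 15 such markers 11 are on the panel, and CD40, a receptor that epithelial tumor cells also carry, was the only marker above background in all 15 samples. IL2RA and CSF1R, the receptor chains for interleukin 2 and for the macrophage growth factor, were above background in 0 of 15 samples. The summed scaled counts of the 11 markers were 353 to 414 in Combi, 332 to 400.0 in control, 236 to 389.7 in SARB, 218 to 359.9 in TQ and 269 to 335 in 5-FU, so each treatment overlapped with control, and their part in the values of the 3 genes was not tested.

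PIK3R4 (NM_014602.1), the VPS15 gene of the housekeeping class, had scaled counts of 301, 331 and 291 in control (308 ± 21.0), 409, 442 and 379 in TQ (409.8 ± 31.8) and 281, 269 and 274 in 5-FU (274 ± 6.08). It had 272, 228 and 237 in Combi (245 ± 23.1) and 269, 199.5 and 226 in SARB (232 ± 35.0). All TQ samples lay above the control samples, as in 6.16% of the 730 endogenous genes. All samples of the other 3 treatments lay below them, as in 27.8% of these genes in 5-FU, 16.7% in Combi and 28.9% in SARB. A fit chosen after the data were seen put PIK3R4 among the tested genes and scaled by the other 39 housekeeping genes. It gave 0.43 in TQ (SE 0.13, adjusted p = 0.0189) and -0.42 in SARB (SE 0.13, adjusted p = 0.0177), both under 1.5-fold, and it called PIK3R4 lower than in TQ in 5-FU (-0.60, adjusted p = 0.00159) and in SARB (-0.85, adjusted p = 3.83e-05). Both calls held under TMM, where PIK3R4 was also called higher in TQ than in control (0.88, adjusted p = 6.55e-04). Both also stood with cartridge as a block, which cannot test a contrast within 1 cartridge. Leaving PIK3R4 out of the scaling changed no call of the 8 other members in any of the 8 comparisons.

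**Figure D3:**
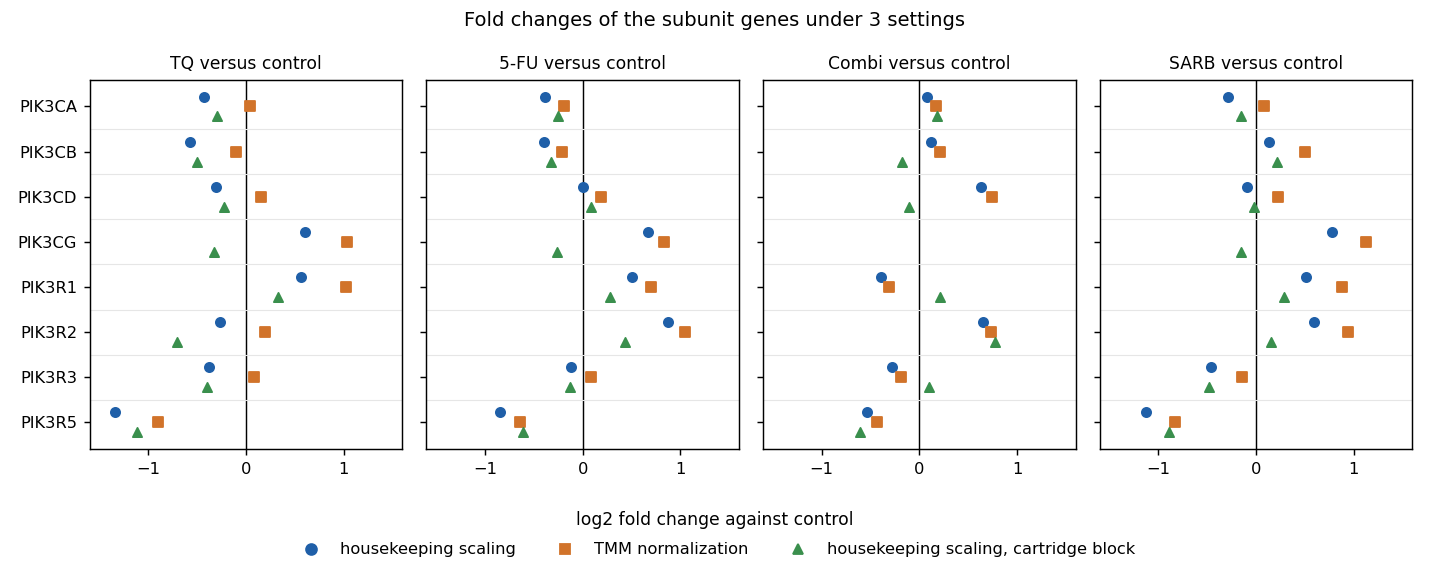
Log2 fold change against control (x axis) of the 8 tested members after housekeeping scaling (circles), after TMM normalization (squares) and with cartridge as a block (triangles), 1 panel per treatment. In TQ and SARB the TMM values stand to the right of the housekeeping values for every member, PIK3CG changes side with the cartridge block in TQ, 5-FU and SARB, and PIK3R5 stays left of 0 throughout.

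Ratios between members within a sample do not depend on the scaling. They compare 2 probes, so only their change between groups is read, and 3 ratios in 5 comparisons gave 15 exact two-sided permutation tests over samples, for which 0.1 is the smallest p that 3 against 3 samples allow. The log2 ratio of PIK3CA over PIK3R1 was 0.84, 1.56 and 1.23 in control, 0.02, 0.27 and 0.29 in TQ, 0.37, 0.05 and 0.50 in 5-FU, 1.35, 2.08 and 1.62 in Combi and 0.22, 0.70 and 0.37 in SARB. All samples of TQ, 5-FU and SARB lay below all control and Combi samples. The mean difference from control was -1.01 in TQ, -0.90 in 5-FU and -0.78 in SARB (exact p = 0.1 each, adjusted p = 0.188 over 15 tests) and 0.48 in Combi (exact p = 0.2). These 3 treatments and control replicate 1 share cartridge 1, and control replicate 1 had the lowest control ratio, above every treated sample of that cartridge.

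The log2 ratio of PIK3R1 over PIK3R2, the p85α gene over the p85β gene, was -0.65, -0.20 and -0.36 in control and 0.42, 0.45 and 0.27 in TQ. It was -0.59, -0.72 and -1.07 in 5-FU, -0.86, -2.08 and -1.51 in Combi and -0.46, -0.83 and -0.37 in SARB. All 3 TQ samples lay above every sample of the other groups. The difference from control was 0.78 in TQ and -1.08 in Combi (exact p = 0.1 each, adjusted p = 0.188), and it was -0.39 in 5-FU (exact p = 0.2) and -0.15 in SARB (exact p = 0.5). Within cartridge 1 the SARB difference turned to 0.10. The log2 ratio of PIK3CA over PIK3CB was lower in SARB than in control by 0.39 without overlap (difference -0.39, exact p = 0.1), and the other 4 comparisons overlapped.

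**Figure D4:**
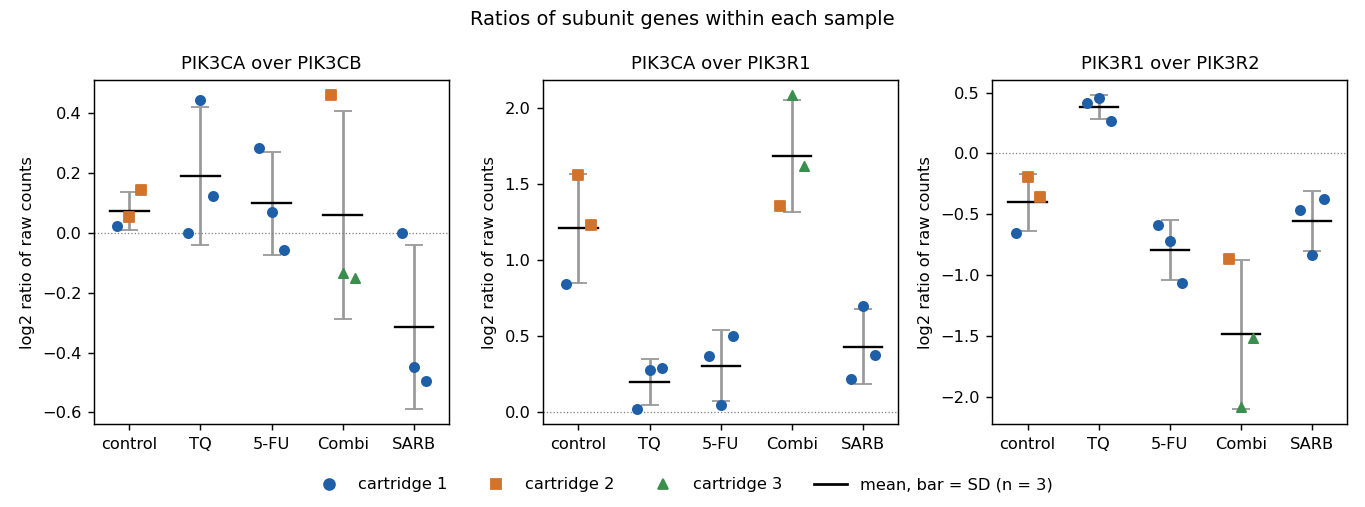
Log2 ratio of the raw counts of 2 members within each sample (y axis) by group, 1 point per sample colored by cartridge, with the mean as a line and 1 SD as a bar (n = 3). The ratio of PIK3CA over PIK3R1 was low in TQ, 5-FU and SARB, and the ratio of PIK3R1 over PIK3R2 was higher in TQ than in any other group.

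Other genes of the pathway were read from a list of 65 genes, of which 34 are on the panel as endogenous genes. In TQ 8 of the 34 were called lower and 0 higher by edgeR, with 2 higher at an unadjusted p under 0.05, where 21.6% of all genes were called lower, and under TMM 7 were called higher and 4 lower. DDIT4, a stress-induced brake on mTORC1, was called lower in TQ (-1.99), 5-FU (-1.13), SARB (-1.22) and Combi (-0.66). EIF4EBP1, a translation repressor that mTORC1 inactivates, was called lower in 5-FU (-1.05), Combi (-1.35) and SARB (-1.22). HRAS, a small GTPase of the RAS family, was called higher in 5-FU (0.97) and SARB (0.60). MDM2, an AKT substrate and the ubiquitin ligase of p53, was called higher in 5-FU (2.05), Combi (2.29) and SARB (2.14). GNG7, a G protein γ subunit, was called lower in 5-FU (-1.69) and SARB (-1.89). Its mean scaled counts there were 10.7 and 10.2, near the background limits, against 34.4 in control. GSK3B, a kinase that AKT inhibits, was called lower in TQ (-1.17), SARB (-0.81) and 5-FU (-0.79), of which the TQ call held under TMM. STK11, the kinase LKB1 upstream of AMPK, was called higher in 5-FU (0.84), SARB (0.76) and Combi (0.63). TQ also had lower calls for BAD, a death promoter that AKT inactivates (-1.32), and the receptor gene ERBB2 (-0.96), and Combi had higher calls for the receptor genes IGF1R (0.68) and EGFR (0.60) and a lower call for CDKN1B, a cell cycle inhibitor (-0.92), which was also called lower in SARB (-0.68). Between SARB and Combi GNG7 (-1.49) and ERBB2 (-0.80) were among the genes called lower in SARB. Of these calls, those of EIF4EBP1, HRAS, MDM2, BAD and, outside Combi, DDIT4 held both under TMM and with cartridge as a block. Those of GNG7, STK11, IGF1R and EGFR, of GSK3B in TQ and of CDKN1B in Combi held under TMM but not with the block. ERBB2 in TQ and CDKN1B in SARB held with the block but not under TMM. DDIT4 in Combi, GSK3B in 5-FU and SARB, and ERBB2 in SARB against Combi held in neither. Neither AKT1 nor AKT2 was called against control.

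SARB had 3 of the 34 genes called on the higher side and 8 on the lower, 5-FU had 3 and 5, and Combi had 4 and 3. Among all genes the shares called higher and lower were 8.63% and 20% in SARB, 10.1% and 10.1% in 5-FU, and 13.6% and 6.58% in Combi. Under TMM the counts of the list were 4 and 5 in SARB, 4 and 4 in 5-FU, 4 and 2 in Combi, and 1 and 2 in SARB against Combi. The TMM shares over all genes were 16.4% and 9.32% in SARB and 14.2% and 5.62% in 5-FU. They were 16.3% and 5.75% in Combi and 5.34% and 7.4% in SARB against Combi. Between SARB and Combi edgeR called 4 lower and 0 higher, with 2 higher at an unadjusted p under 0.05, where 11.2% of all genes were called lower. With cartridge as a block the counts of higher and lower calls were 0 and 4 in TQ, 2 and 4 in SARB, 2 and 3 in 5-FU, and 1 and 1 in Combi. Between SARB and Combi no gene of the list was then called, where 0.137% of all genes were. The block shares over all genes were 1.78% and 3.56% in TQ and 6.85% and 7.67% in SARB. They were 8.08% and 5.34% in 5-FU and 8.36% and 4.79% in Combi. The median log2 fold change of the list was -0.37 in TQ, -0.24 in SARB, -0.08 in 5-FU and 0.02 in Combi, each on the higher side of the median over all genes. Under TMM it was 0.10 in TQ, 0.14 in SARB, 0.12 in 5-FU and 0.12 in Combi, so the sign turned in TQ, SARB and 5-FU.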

How the data were processed

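RNA of HCT116 cells was measured on the nCounter PanCancer Pathways panel in 15 samples, 3 per group. The deposited counts are the raw barcode counts per probe, with the control probes, and were not normalized by the authors. The deposited normalized signal was made by the authors in nSolver from the geometric mean of the housekeeping genes. It served as an alternative only, as log2(signal + 1). The authors' table of fold changes and p-values was not used.

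Groups follow the sample titles, and cartridges the scanner-file names in the labels. Raw counts were tested with the quasi-likelihood test of edgeR 4.0.16 (R 4.3.3), with all 5 groups in 1 fit and housekeeping size factors as offsets, over 730 genes. Standard errors, 95% intervals and adjusted p-values come from that fit. In the report a log2 fold change is given for a member above background in at least 2 of 3 samples of a group compared, and none against a group with 0 of 3 above background. The alternatives were TMM normalization, DESeq2 1.42.0, limma 3.58.1, 20 housekeeping genes, a minimum mean count of 20, counts under 20 set to 20, cartridge or replicate number as a block, only the groups compared, scaling without PIK3R4, and leaving out each sample. Scaling without PIK3R4 and the comparisons among TQ, 5-FU and SARB were chosen after seeing the data. The test was tried on simulated counts first. Within-sample ratios were compared by exact two-sided permutation tests.

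All members were named, with up to 5 pathway genes per direction and comparison, those called with the largest changes, and the 3 genes nearest in pattern to each member called against control. AKT1 and AKT2 were chosen after their values were seen. Some pathway genes that the rule names are not reported here. The members, lists and tests were chosen with earlier results of these data known. Precision is limited by 3 samples per group and, for PIK3CG and PIK3R5, by few counts.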

Additional observations from a re-analysis of the deposited data

How the results depend on the processing

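The number of members called changed with the setting. In TQ against control (1 called) it was 2 with 20 housekeeping genes, in limma and with the replicate block, and 0 with the cartridge block or with counts under 20 set to 20. In 5-FU (1 called) it was 2 under TMM, in DESeq2 and in the fit of only the groups compared, and 0 with the cartridge block. In Combi (2 called) it was 3 under TMM, and 1 with 20 housekeeping genes, in limma, with either block and with only the groups compared. In SARB (2 called) it was 3 in limma, where PIK3CG was added. It was 1 there with 20 housekeeping genes, the replicate block or only the groups compared, and 0 with the cartridge block. In SARB against Combi (2 called) it was 0 with the cartridge block, 1 with counts under 20 set to 20 and 3 with 20 housekeeping genes, where PIK3CD was added, in SARB against TQ (2 called) it was 1 in DESeq2, and over the 5 groups 2 members differed with the cartridge block. The shares of all genes called in TQ were 30.1% with 20 housekeeping genes, 17.7% in limma, 22.2% with the replicate block and 12.6% with counts under 20 set to 20. In 5-FU they were 18.8% in DESeq2 and 23.8% with only the groups compared. In Combi they lay between 19.6% (replicate block) and 24% (limma) in the settings named other than the cartridge block. In SARB they were 29.6% in limma, 31% with 20 housekeeping genes, 25.8% with the replicate block and 23.2% with only the groups compared. In SARB against Combi they were 9.73% with counts under 20 set to 20 and 17.4% with 20 housekeeping genes. In SARB against TQ the share was 17.9% in DESeq2. Without 1 sample at a time the counts ran from 0 to 4 in TQ, Combi and SARB, from 1 to 2 in 5-FU and in SARB against TQ, from 2 to 4 in SARB against Combi, from 0 to 1 in SARB against 5-FU and from 5 to 7 over the 5 groups, and it was 1 throughout in 5-FU against TQ. The count of 4 came without control replicate 1 in TQ, without Combi replicate 1 in Combi, without control replicate 1 or SARB replicate 2 in SARB, and without SARB replicate 2 in SARB against Combi.

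The members' median log2 fold change moved in TQ to 0.12 (TMM) and 0.16 (DESeq2), in Combi to 0.17 (TMM) and 0.022 (limma), in SARB to 0.36 (TMM) and 0.37 (DESeq2), and in SARB against Combi to 0.20 (DESeq2). Without 1 sample it ran from -0.47 to -0.23 in TQ, -0.000793 to 0.14 in Combi, -0.09 to 0.12 in SARB, -0.18 to 0.06 in 5-FU and -0.20 to -0.07 in SARB against Combi.

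Values that turned sign under TMM and DESeq2 were, in this order, those in TQ of PIK3CA (0.044 and 0.082), PIK3CD (0.16 and 0.19), PIK3R2 (0.19 and 0.22) and PIK3R3 (0.084 and 0.13), in 5-FU of PIK3R3 (0.080 and 0.089), in SARB of PIK3CA (0.083 and 0.096) and PIK3CD (0.22 and 0.23), and in SARB against Combi of PIK3R2 (0.21 and 0.29) and PIK3R3 (0.047 and 0.11). Limma turned PIK3CD to 0.00687 in TQ and 0.15 in SARB. With 20 housekeeping genes PIK3CD was -0.067 in 5-FU and PIK3CB -0.093 in SARB against Combi, and without PIK3R4 in the scaling PIK3CD was -0.000422 in 5-FU. The cartridge block turned PIK3CG (-0.33 in TQ, -0.26 in 5-FU, -0.15 in SARB and -0.15 in SARB against Combi), PIK3CB (-0.18), PIK3CD (-0.11), PIK3R1 (0.21) and PIK3R3 (0.094) in Combi, and PIK3CD (0.092) in SARB against Combi. Counts under 20 set to 20 turned PIK3CG to -0.18 in 5-FU and -0.076 in SARB. The cause was not tested.

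Leaving out 1 sample turned the sign of values near 0. The ranges were -0.50 to 0.00482 for PIK3R2 in TQ, -0.23 to 0.19 for PIK3CD and -0.27 to 0.041 for PIK3R3 in 5-FU, -0.000793 to 0.14 for PIK3CA in Combi, and -0.012 to 0.29 for PIK3CB and -0.36 to 0.15 for PIK3CD in SARB. In SARB against Combi they were -0.13 to 0.18 for PIK3CB, -0.11 to 0.011 for PIK3R2 and -0.62 to 0.13 for PIK3R3. The log2 ratio of PIK3CA over PIK3CB ran from -0.22 to 0.089 in Combi, -0.012 to 0.21 in TQ and -0.067 to 0.10 in 5-FU, and that of PIK3R1 over PIK3R2 in SARB turned to 0.096 within the first cartridge.

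Samples with the same replicate number did not deviate together (r from -0.50 to 0.48, median 0.04, 30 pairs), so the numbers were not taken as pairs. With replicate number as a block PIK3R1 was called in TQ (0.59, adjusted p = 0.027), PIK3R5 in SARB lost its call (-1.09, adjusted p = 0.0562), and the counts were 2 in TQ, 1 in 5-FU, 1 in Combi, 1 in SARB and 2 in SARB against Combi. Few counts limit PIK3CG, whose values lay at background in 6 of 15 samples.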
